A study of Mus musculus with 9 samples.

Results

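Transcripts of 10 genes of transforming growth factor beta (TGF-beta) signalling were followed in mouse heart: the ligands Tgfb1, Tgfb2 and Tgfb3, the receptors Tgfbr1, Tgfbr2 and Tgfbr3, the latent TGF-beta binding proteins Ltbp1, Ltbp2 and Ltbp3, and Tgfbi, a matrix protein named for its induction by TGF-beta. They were taken as a family by name, with earlier results of these data known. All 10 were found among the 53465 gene rows of the count files and all 10 passed the filter on low counts, among 13825 genes tested. RNA sequencing covered 9 libraries of NOD-SCID mice, an immunodeficient strain that all groups share. Sham-operated hearts gave 3 of them. Another 3 came after ligation of a coronary artery, which deprives ventricular muscle of blood, and the last 3 after ligation together with an implant of FOXO3-GE-MPCs, which the labels do not spell out. The labels place the sampled tissue in the infarct border zone in each group, also in sham, and give no age, sex, time after surgery or number of cells. They do not say whether a library is 1 animal, so p-values measure only the spread between these libraries.

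TGF-beta ligands are secreted as latent complexes. The mature dimer stays bound to its own propeptide, and latent TGF-beta binding proteins tie that complex to the extracellular matrix until integrins, thrombospondin or proteases release the ligand. Released ligand binds the type II receptor Tgfbr2, which phosphorylates the type I receptor Tgfbr1, and Tgfbr1 in turn phosphorylates Smad2 and Smad3. In injured heart the pathway is known for driving fibroblasts to make scar matrix and for restraining inflammation.

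The libraries held 4549268 (ligation replicate 1) to 7515052 (ligation replicate 3) gene counts. Mitochondrially encoded genes took 19.1% to 19.9% of gene counts in sham, 12.5% to 13.9% in ligation and 14.3% in each library with cells. Cardiomyocyte markers were present at summed levels of 36720 to 38520 CPM (read counts scaled to a common library size with TMM factors) in sham, 30740 to 31730 in ligation and 29940 to 30520 with cells, and 4 of the 6 were lower and 1, Ryr2, was higher after ligation (log2 0.36). The lymphoid markers Cd3d and Ms4a1 were at 0 counts in all 9 libraries, where all 5 lymphoid markers summed to at most 0.890 CPM. In the order sham, ligation and cells, summed neutrophil markers were at 37.9 to 45.2, 14.3 to 21.0 and 5.76 to 6.80 CPM, and erythroid markers at 871 to 919, 1496 to 1595 and 663 to 680. Skeletal muscle markers were at 2.49 to 4.28, 8.54 to 12.2 and 1.84 to 3.31 CPM, and atrial markers at 474 to 565, 845 to 1611 and 1569 to 2179. Within the atrial list Nppa made up the higher sum after ligation (mean 107 to 895 CPM) and did not pass between cells and ligation (log2 -0.17). Sln, Myl4 and Myl7 were lower after ligation (-0.25, -0.46 and -0.68 on the log2 scale) and higher with cells than in ligation (1.80, 1.79 and 1.60). Bmp10 went the other way, higher after ligation (4.96) and lower with cells than in ligation (-2.39). Its means were 0.108, 3.96 and 0.751 CPM in sham, ligation and cells. The fall of the neutrophil sum after ligation was that of S100a8 and S100a9 (log2 -1.925 and -1.903). Csf3r (0.64) and Cxcr2 (-0.42) did not pass after ligation, and Retnlg was removed by the filter. With cells against ligation S100a8, S100a9 and Csf3r were lower, and Cxcr2 did not pass. The part of all these markers in the members' changes was not tested. File headers give sham replicates 1 and 2 the same name stem, and likewise ligation replicates 2 and 3. Counts within these pairs differed with a mean chi-square per gene of 3.73 and 2.23, against 1.93 to 3.49 in the pairs of different stems, so both pairs differed by more than sampling noise. Each member's changes were also computed with such libraries summed.

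The upstream sequences of 4 members are shown because they stand for the different patterns described below: Tgfb1, which did not pass the test after ligation and was lower with cells; Tgfb2 and Ltbp2, the ligand and the latency protein family member with the largest increases; and Tgfbi, which rose after ligation and was below sham with cells. They are the bases before the RefSeq transcription start in GRCm38.p6 (the mm10 assembly), 5′ to 3′ on the gene's strand, cut where GENCODE M21 already places an exon. They cover chr7:25686752-25687001 (plus strand) for Tgfb1, chr1:186705990-186706239 (minus) for Tgfb2, chr12:84876533-84876741 (minus) for Ltbp2 and chr13:56609336-56609522 (plus) for Tgfbi. Capitals mark matches to the motifs searched.
Tgfb1: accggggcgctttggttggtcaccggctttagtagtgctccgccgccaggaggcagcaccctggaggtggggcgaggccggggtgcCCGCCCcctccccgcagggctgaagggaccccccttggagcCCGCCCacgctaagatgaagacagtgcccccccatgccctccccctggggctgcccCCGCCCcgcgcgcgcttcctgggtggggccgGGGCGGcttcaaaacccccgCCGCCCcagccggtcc
Tgfb2: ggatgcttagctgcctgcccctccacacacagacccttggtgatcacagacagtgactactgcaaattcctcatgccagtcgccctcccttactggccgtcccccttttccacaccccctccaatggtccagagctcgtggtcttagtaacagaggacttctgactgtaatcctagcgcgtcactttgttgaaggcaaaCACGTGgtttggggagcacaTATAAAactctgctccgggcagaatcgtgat
Ltbp2: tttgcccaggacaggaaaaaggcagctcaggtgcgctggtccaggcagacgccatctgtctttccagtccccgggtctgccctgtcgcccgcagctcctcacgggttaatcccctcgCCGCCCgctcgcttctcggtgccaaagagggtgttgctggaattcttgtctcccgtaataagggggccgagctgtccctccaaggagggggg
Tgfbi: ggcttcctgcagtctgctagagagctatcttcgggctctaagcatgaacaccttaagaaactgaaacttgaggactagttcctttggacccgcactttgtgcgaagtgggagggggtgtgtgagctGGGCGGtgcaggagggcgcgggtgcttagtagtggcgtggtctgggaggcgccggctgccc

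The motifs, searched on both strands, were the TATA box (TATAAA), the cyclic AMP response element (TGACGTCA), an E-box (CACGTG), the AP-1 site (TGANTCA), the GC box (GGGCGG) and the Smad palindrome (GTCTAGAC). The Tgfb1 window was 75.2% G or C and held 5 GC boxes and no TATA box. The Tgfb2 window was 53.6% G or C and held 1 TATA box, whose first base lies 31 bases before the start, and 1 E-box at 51 bases. Ltbp2 and Tgfbi held 1 GC box each. Of 27025 promoter windows of 250 bases, 32.96% held a GC box, 12.98% a TATA box and 6.04% this E-box. In the windows of 209 and 187 bases that match Ltbp2 and Tgfbi, 26.5% and 22.1% held a GC box. Among the other members in the RefSeq table, which held 8 of the 10, Tgfbr1 had 2 GC boxes and Ltbp1 had 1 cyclic AMP response element, at 73 bases before its start, a motif found in 1.60% of windows. Tgfbr2 and Ltbp3 had no match. These matches describe letters, not binding.

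After ligation 8 of the 10 members were higher than in sham: Tgfb2, Tgfb3, Tgfbr1, Tgfbr2, Ltbp1, Ltbp2, Ltbp3 and Tgfbi. Tgfb1 and Tgfbr3 did not pass the test, and no member was lower. Over all genes tested, 38.2% had an adjusted p under 0.05 (quasi-likelihood F-test of edgeR, adjusted by Benjamini and Hochberg), with 20.1% higher and 18.0% lower. The median log2 fold change of the members was 0.85, against 0.0080 over all genes. The members' mean levels lay between the 67.1 (Tgfbr1) and 91.9 (Tgfbr2) percentiles of the genes tested, so they were counted more deeply than most genes in that background.

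Among the ligands, Tgfb2 (ENSMUSG00000039239, chr1:186622792-186705989 in mm10, minus strand) encodes the isoform that needs the co-receptor Tgfbr3 for strong binding. It was at 14.1, 16.3 and 18.4 CPM in sham, 54.5, 58.3 and 57.1 in ligation, and 69.6, 67.7 and 58.2 with cells. All 6 libraries from ligated hearts lay far above sham, while ligation and cells overlapped. The increase after ligation was 3.48-fold (log2 1.80, SE 0.102, edgeR adjusted p 1.72e-11).

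Tgfb3 (ENSMUSG00000021253, chr12:86056745-86079041, minus strand) encodes the third isoform, best known for its part in palate closure. Its levels were 27.8, 22.2 and 27.1 CPM in sham, 49.2, 50.1 and 54.0 in ligation, and 56.5, 54.1 and 67.3 with cells. The 3 groups did not overlap, the highest ligation library and the lowest cell library lying close together. After ligation it rose 1.99-fold (log2 0.996, SE 0.102, edgeR adjusted p 1.21e-07).

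Tgfb1 (ENSMUSG00000002603, chr7:25687002-25705077, plus strand) encodes the isoform that platelets and macrophages carry in large amounts. It was at 64.4, 64.4 and 53.5 CPM in sham and 59.4, 68.9 and 57.5 in ligation, and the ranges overlapped. The fitted log2 difference was 0.030 (SE 0.0854, edgeR adjusted p 0.812), and its sign turned without sham replicate 3 (-0.055) and without ligation replicate 2 (-0.053). With library totals in place of TMM factors it was 0.22 (edgeR adjusted p 0.0424), a scaling that moved the median gene from 0.0080 to 0.20.

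**Figure D1:**
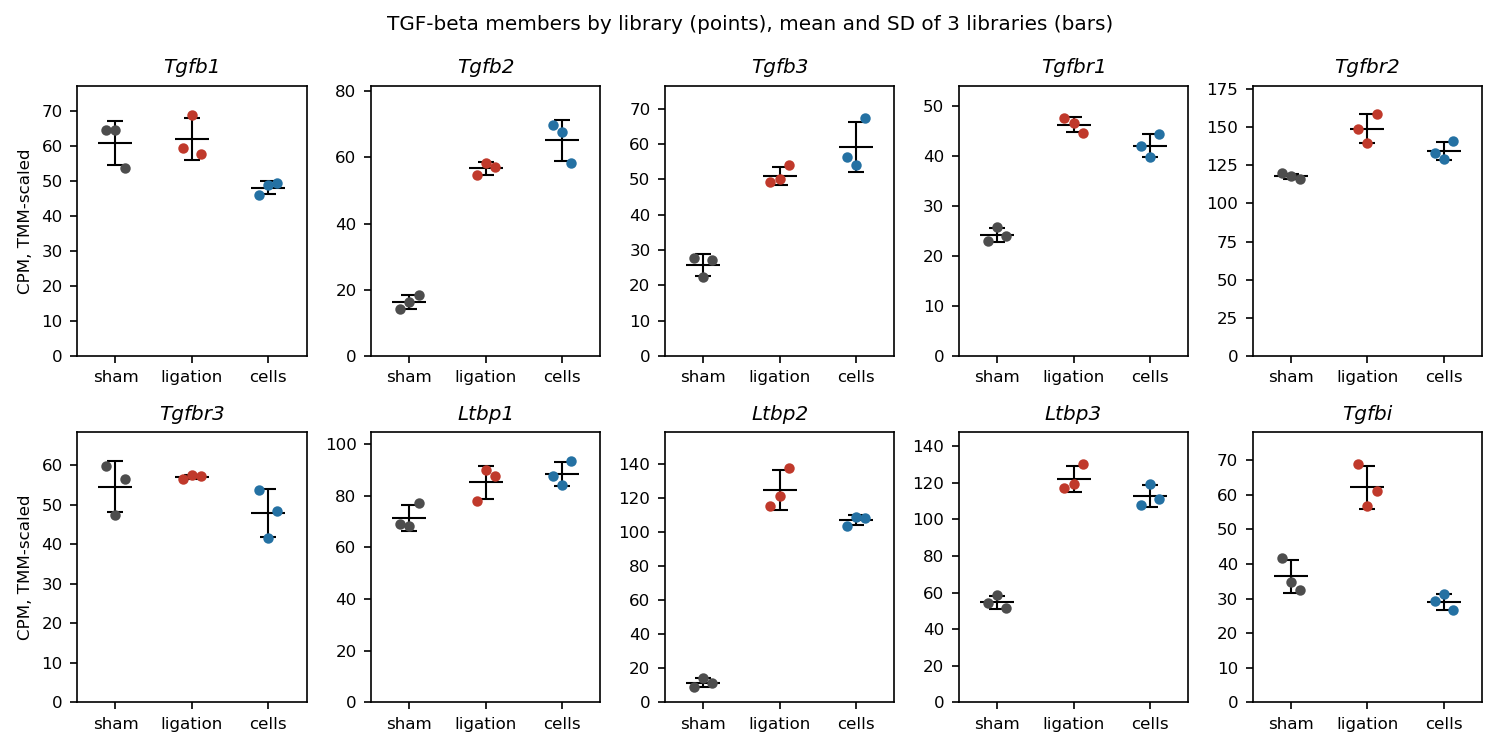
CPM (TMM-scaled, y axis from 0) of each of the 10 members in sham, ligation and cell libraries; points are libraries, horizontal bars the mean and error bars the SD of 3 libraries. Ltbp2 goes from 9.26 to 14.2 CPM in sham to at least 104 CPM in every ligated heart, while Tgfb1 overlaps between sham and ligation and is lowest with cells.

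Of the receptors, Tgfbr1 (ENSMUSG00000007613, chr4:47353222-47414931, plus strand), the type I receptor kinase, was at 23.0, 25.7 and 24.0 CPM in sham and at 47.5, 46.6 and 44.5 in ligation. No ligation library came near sham. It rose 1.90-fold (log2 0.93, SE 0.0872, edgeR adjusted p 3.41e-08). Tgfbr2 (ENSMUSG00000032440, chr9:116084293-116175360, minus strand), the type II receptor, rose less, 1.26-fold, from 120, 118 and 116 CPM to 149, 139 and 159 (log2 0.34, SE 0.0613, edgeR adjusted p 0.000164). Its groups did not overlap either. Tgfbr3 (ENSMUSG00000029287, chr5:107106570-107289629, minus strand), or betaglycan, a co-receptor without kinase activity, was at 59.8, 47.3 and 56.5 CPM in sham and 56.5, 57.4 and 57.3 in ligation. The ligation libraries fell inside the sham range, with a log2 difference of 0.067 (SE 0.0931, edgeR adjusted p 0.609). That difference was -0.027 without sham replicate 2 and 0.26 with library totals, which put it past the threshold (edgeR adjusted p 0.0301).

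The largest change of any member was in Ltbp2 (ENSMUSG00000002020, chr12:84783212-84876532, minus strand), the family member that does not bind latent TGF-beta and associates with elastic fibres. It had 52, 86 and 72 counts in sham, or 9.26, 14.2 and 11.4 CPM, and rose to 115, 121 and 138 CPM in ligation. The fold was 10.7 (log2 3.42, SE 0.106, edgeR adjusted p 8.57e-16), and in every fit with 1 library left out it was between 3.29 and 3.59 on the log2 scale. Ltbp3 (ENSMUSG00000024940, chr19:5740904-5758532, plus strand), which binds latent TGF-beta, rose 2.24-fold, from 54.1, 58.5 and 51.4 to 117, 120 and 130 CPM (log2 1.16, SE 0.0706, edgeR adjusted p 4.70e-11). Both genes were at least at 104 CPM in every library from a ligated heart and at most at 58.5 CPM in every sham library.

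Ltbp1 (ENSMUSG00000001870, chr17:75005568-75392512, plus strand), the most studied carrier of latent TGF-beta, changed little by comparison. Sham libraries were at 69.1, 68.2 and 77.3 CPM and ligation libraries at 78.0, 89.9 and 87.6, with a narrow gap between the groups. The log2 difference was 0.26 (SE 0.0736, edgeR adjusted p 0.00884). It did not pass without ligation replicate 3 (edgeR adjusted p 0.0533) or with libraries of a shared header stem summed (0.20, edgeR adjusted p 0.0928).

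Tgfbi (ENSMUSG00000035493, chr13:56609523-56639562, plus strand) encodes a secreted protein that binds collagens and integrins. It was at 41.8, 34.9 and 32.5 CPM in sham and at 68.8, 56.7 and 61.0 in ligation, with no overlap. It rose 1.70-fold (log2 0.77, SE 0.0980, edgeR adjusted p 2.53e-06).

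**Figure D2:**
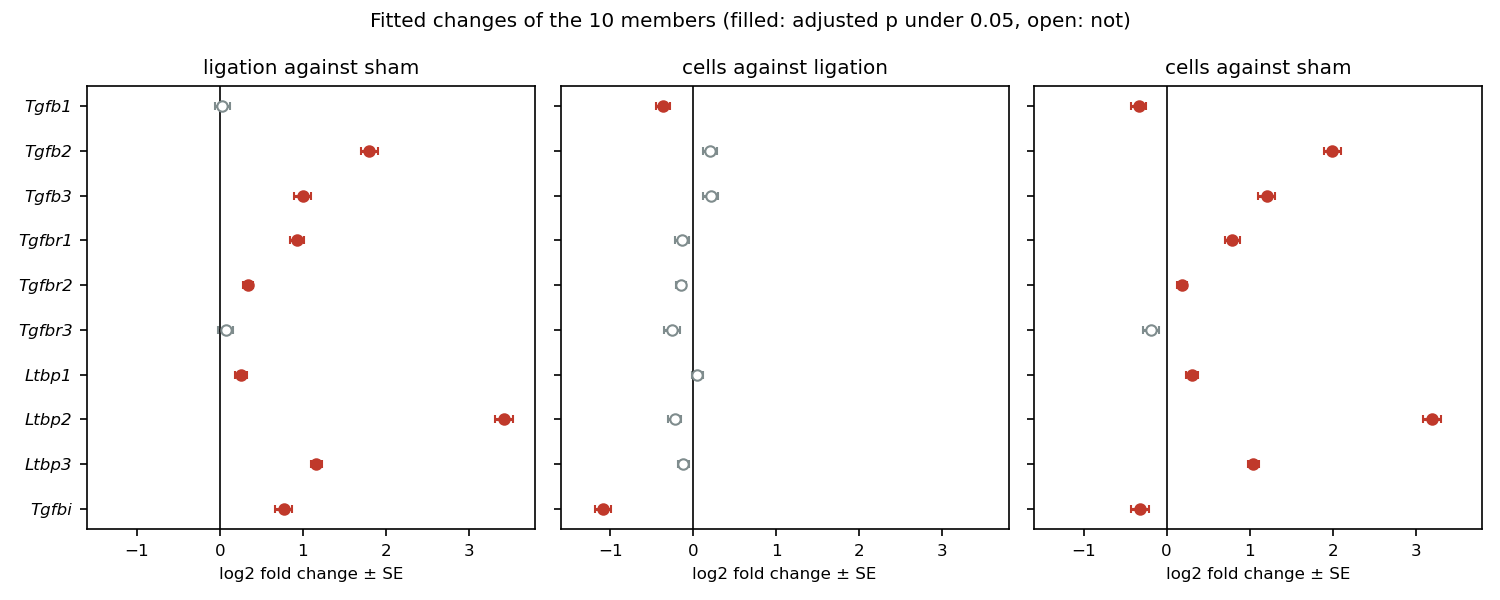
Log2 fold change (x axis) with its SE for each member in the 3 comparisons; filled points have an edgeR adjusted p under 0.05 and open points do not. In the middle panel only Tgfb1 (-0.37) and Tgfbi (-1.09) are filled, and both are also below 0 against sham.

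With implanted cells, 2 of the 10 members were lower than after ligation alone, Tgfb1 and Tgfbi, and none was higher. Over all genes 9.87% passed an adjusted p of 0.05 in the edgeR test, 4.19% higher and 5.69% lower with cells. A count of 2 among 10 is not far from that background, and it was 1 to 3 in fits without 1 library and 4 with no filter on low counts. The median log2 fold change of the members was -0.14, against 0.0020 over all genes. This comparison uses the same ligation libraries as the one with sham, so an error in them enters both with opposite sign.

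Tgfbi fell from 68.8, 56.7 and 61.0 CPM in ligation to 29.2, 31.4 and 26.6 with cells. Every cell library was below every ligation library and also below every sham library. The fall was to 0.471 of the ligation level (log2 -1.09, SE 0.0986, edgeR adjusted p 1.59e-07), and -1.02 to -1.15 without single libraries. Against sham Tgfbi was lower by a smaller margin (log2 -0.32, SE 0.105, edgeR adjusted p 0.0191). That call was lost without sham replicate 1 (-0.21, edgeR adjusted p 0.131), without cell replicate 3 (-0.26, edgeR adjusted p 0.0863) and with library totals (-0.16, edgeR adjusted p 0.215).

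Tgfb1 was at 46.0, 48.8 and 49.3 CPM with cells, below all 6 libraries of the other groups. The log2 difference was -0.37 from ligation (SE 0.0860, edgeR adjusted p 0.00744) and -0.34 from sham (SE 0.0867, edgeR adjusted p 0.00366). Without ligation replicate 2, the library with the highest Tgfb1, the first was -0.28 and did not pass (edgeR adjusted p 0.0743). With library totals the difference from sham was -0.18 and did not pass (edgeR adjusted p 0.0995).

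The other 8 members did not pass between cells and ligation. Tgfb2 and Tgfb3 stood at log2 differences of 0.20 (SE 0.0835) and 0.21 (SE 0.0905), with edgeR adjusted p-values of 0.152 and 0.168. Tgfbr1, Tgfbr2 and Tgfbr3 stood at -0.14, -0.15 and -0.25, and the edgeR adjusted p of Tgfbr3, 0.0933, fell to 0.0390 without cell replicate 1 and to 0.0450 with no filter. Ltbp1 and Ltbp3 stood at 0.050 and -0.12. Ltbp2, at 104, 109 and 108 CPM with cells, lay below all ligation libraries (-0.23, SE 0.0787, edgeR adjusted p 0.0765). It passed in 5 of 19 alternatives: limma-voom (limma adjusted p 0.0347), no filter (0.0267), fits of the compared groups alone (0.0335), and without sham replicate 2 (0.0388) or ligation replicate 1 (0.0336), the last 4 by edgeR.

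Against sham, 9 of the 10 members differed in hearts with cells, 7 higher and 2 lower, where 40.9% of all genes passed the edgeR test, 21.0% higher and 20.0% lower. The 7 were Tgfb2 (log2 1.997), Tgfb3 (1.205), Tgfbr1 (0.79), Tgfbr2 (0.19), Ltbp1 (0.31), Ltbp2 (3.20) and Ltbp3 (1.045). All but Tgfbr2 had an edgeR adjusted p of at most 0.00200. Tgfbr2 had 0.0190, and it did not pass without sham replicate 3 (0.0583) or cell replicate 3 (0.0986). Tgfbr3 was at -0.19 (edgeR adjusted p 0.119), and passed without sham replicate 2 (0.0266) or cell replicate 1 (0.0372). Library totals alone moved the share of higher genes among all calls from 52.7% to 78.7% after ligation, from 42.4% to 32.0% for cells against ligation and from 51.2% to 73.1% for cells against sham.

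Per kilobase of exon, the order of the members' levels differed between groups. In sham the order by CPM per kb ran from Tgfbr2 (14.4) and Tgfb1 (12.1) through Tgfbi, Tgfbr3, Tgfb3, Ltbp1 and Ltbp3 (9.66 to 6.03) to Tgfbr1 (3.71), Tgfb2 (2.81) and Ltbp2 (1.42). The neighbours from Tgfb1 down to Ltbp3 overlapped in their library ranges, whereas Tgfbr1, Tgfb2 and Ltbp2 were each separate. In ligation Tgfbr2 (18.2), Tgfbi (16.5), Ltbp2 (15.3) and Tgfb3 (15.1) led with overlapping neighbours, and Ltbp3 (13.5) overlapped Tgfb1 (12.3). Below them stood Tgfb2 (9.78), Tgfbr3 (8.72), Ltbp1 (7.97) and Tgfbr1 (7.07), each apart from the next. With cells Tgfb3 (17.5) and Tgfbr2 (16.4) overlapped at the top, then Ltbp2 (13.1), Ltbp3 (12.4) and Tgfb2 (11.3), each overlapping the next, and Tgfb1 (9.52) stood apart. The lowest were Ltbp1 (8.28), Tgfbi (7.71), Tgfbr3 (7.32) and Tgfbr1 (6.42), each overlapping the next. By this length Ltbp2 stood in the tenth place in sham and in the third in both other groups. The order depends on the length used. Per kilobase of the longest transcript Tgfb1 led in sham (23.6) without overlap and in ligation (24.1), Ltbp3 (19.7) led with cells ahead of Tgfb1 (18.7), and Ltbp2 stood in the tenth, the fourth and the fifth place.

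The mix of ligand transcripts shifted away from Tgfb1. Per kilobase of exon, Tgfb1 made up 54.6%, 57.6% and 48.6% of the ligand sum in the sham libraries, 33.0%, 35.5% and 30.6% in ligation and 24.1%, 25.9% and 24.6% with cells. The 3 groups did not overlap. Tgfb2 made up 12.6% ± 2.11 (SD, n = 3) in sham, 26.3% ± 0.180 in ligation and 29.5% ± 3.60 with cells, and the last 2 groups overlapped. Tgfb3 made up 33.8% ± 3.71, 40.7% ± 2.23 and 45.7% ± 3.88, with overlap between ligation and cells. The ratio of Tgfb2 to Tgfb1 was 0.237 ± 0.0566 in sham, 0.800 ± 0.0640 in ligation and 1.19 ± 0.146 with cells, without overlap. The summed ligand level was 22.5 ± 0.839 CPM per kb in sham, 37.2 ± 1.39 in ligation and 38.3 ± 1.24 with cells, and the last 2 groups overlapped. These shares and ratios are given as descriptions and were not tested.

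The choice of gene length changes which ligand has the largest mean share in ligation and with cells, but not in sham. The exons of Tgfb1 from all annotated transcripts span 5042 bases, but its longest transcript has 2573. With the longest transcript as length, Tgfb1 had the largest mean share in every group, at 68.6%, 47.8% and 38.1% in sham, ligation and cells, and Tgfb3 stood at 22.1%, 30.1% and 35.8%. With cells the 2 overlapped, and in cell replicate 3 Tgfb3 (39.5%) was above Tgfb1 (38.0%). The ratio of Tgfb2 to Tgfb1 was then 0.137, 0.462 and 0.685, below 1 also with cells. The mean shares moved in the same direction from group to group with both lengths, but the summed level did not: by longest transcript it was 50.3 ± 2.42 CPM per kb in ligation and 48.9 ± 1.29 with cells, again with overlapping ranges. Parts of Tgfb3 (7.60% of its exon bases with Gm48008 and 4.82% with Gm37804) and of Ltbp2 (9.34% with D030025P21Rik) overlap exons on the opposite strand, and the strand setting of the counts is not stated.

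**Figure D3:**
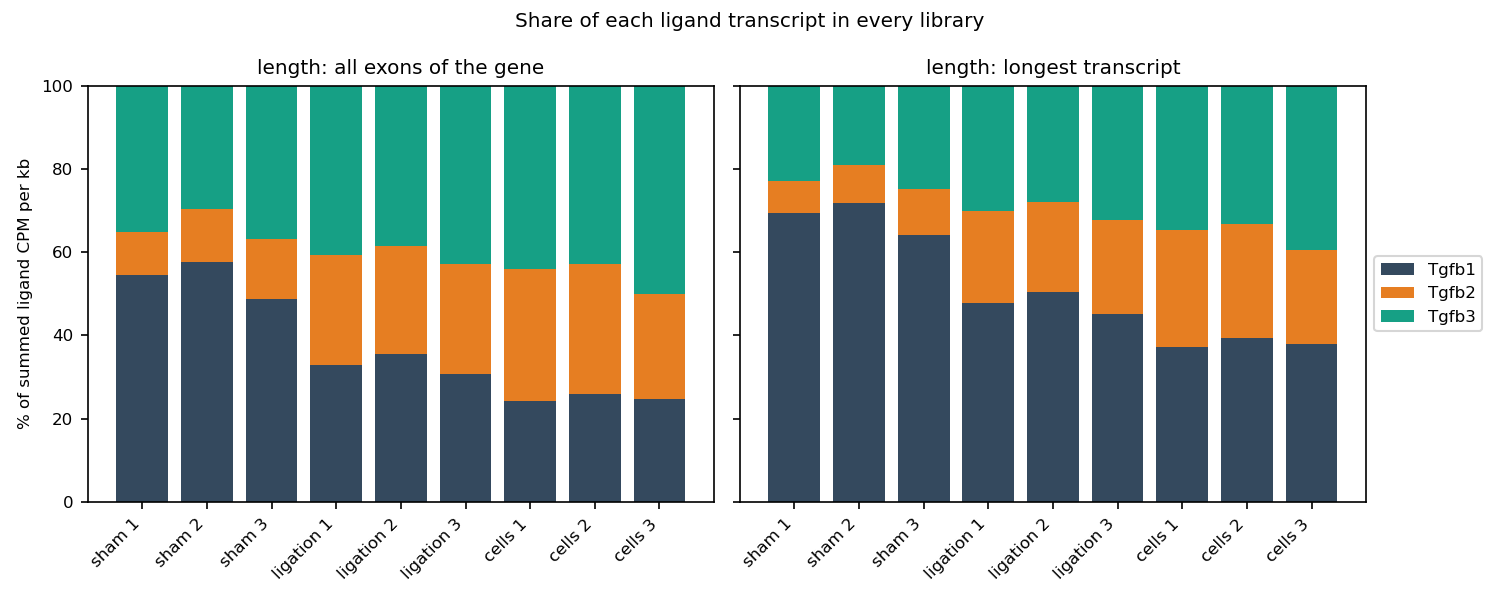
Share (%) of Tgfb1, Tgfb2 and Tgfb3 in their summed CPM per kb in each of the 9 libraries, with length taken as all exons of a gene (left) or its longest transcript (right). In both panels the Tgfb1 share is largest in sham and smallest with cells.

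The rest of the pathway was read from 6 lists of 60 genes, all matched and 58 tested. After ligation 40 were higher and 3 lower, with a median log2 fold change of 0.62. With cells against ligation 7 were higher and 7 lower, with a median of -0.024. Beside the backgrounds of 38.2% and 9.87% these are 43 and 14 of 58 genes called. The counts of single lists below stand beside the same backgrounds. Of all genes 20.1% were higher and 18.0% lower after ligation, and 4.19% and 5.69% with cells against ligation. With cells against sham 42 were higher and 4 lower, with a median of 0.66, beside a background of 40.9%.

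Of the genes that hold or release latent TGF-beta, 7 of 13 were higher after ligation and 1 was lower. Itgb5, an integrin subunit that pairs with the alpha-v chain in ligand release, rose from 129 to 257 CPM (log2 0.998, SE 0.0582, edgeR adjusted p 2.51e-11). Thbs1, thrombospondin-1, an activator of latent TGF-beta, was at 21.5, 19.1 and 25.1 CPM in sham, 54.3, 51.7 and 53.6 in ligation and 81.7, 82.4 and 83.1 with cells. It rose after ligation (log2 1.28, SE 0.0892, edgeR adjusted p 4.16e-10) and was higher again with cells (0.63, SE 0.0748, edgeR adjusted p 6.17e-06). Itgb6, an epithelial partner of the alpha-v chain, was lower after ligation (log2 -0.64, SE 0.205, edgeR adjusted p 0.0177), and this did not pass without sham replicate 1 (0.0658) or with library totals (0.0812).

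The proteins that tether latent TGF-beta to cell surfaces moved in different directions with cells. Nrros, the tether of myeloid cells, was at 21.1, 20.0 and 20.8 CPM in ligation and 12.3, 9.43 and 7.92 with cells. No cell library reached the ligation range, and the log2 difference was -1.05 (SE 0.169, edgeR adjusted p 0.000236). Lrrc32, the tether known from regulatory T cells and platelets, was at 33.0, 37.0 and 35.9 CPM in ligation and 48.8, 44.4 and 45.4 with cells (log2 0.38, SE 0.0808, edgeR adjusted p 0.00350).

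Among accessory receptors 2 of 5 were higher after ligation and 1 lower. Cd109, a surface protein that dampens TGF-beta signalling, rose by 1.62 and Bambi, a pseudoreceptor without a kinase, rose by 0.73 on the log2 scale. Eng, an endothelial co-receptor, fell by 0.43 (SE 0.0574, edgeR adjusted p 4.31e-06), and the summed endothelial markers were at 1891 to 1996 CPM in sham, 1249 to 1329 in ligation and 1356 to 1394 with cells. Their part in the change of Eng was not tested. Eng was also lower with cells than in ligation (-0.20, edgeR adjusted p 0.0345), a call lost in 4 of the fits without 1 library and with shared header stems summed, with edgeR adjusted p-values of up to 0.179.

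Of the Smad transducers, Smad4, the common partner, was the only one of 4 past the threshold after ligation. It rose from 46.6, 53.2 and 48.9 CPM to 96.1, 104 and 111 (log2 1.07, SE 0.0724, edgeR adjusted p 2.42e-10), with no overlap. Smad2, Smad3 and Zfyve9 stood at 0.18, 0.16 and 0.11. Of 9 feedback genes and repressors 6 were higher after ligation and none lower. Pmepa1, which sequesters Smad proteins, rose by 0.79 (SE 0.0710, edgeR adjusted p 1.83e-08). Skil, a Smad repressor, was at 45.8, 46.6 and 46.4 CPM in ligation and 64.5, 58.7 and 64.1 with cells (log2 0.43, SE 0.0731, edgeR adjusted p 0.000409). Smad7, the inhibitory Smad, stood at 0.082 after ligation (edgeR adjusted p 0.383). Ppm1a, a Smad phosphatase, was higher after ligation by 0.36 (edgeR adjusted p 1.92e-05). Its further difference of 0.17 with cells passed narrowly (edgeR adjusted p 0.0423) and was lost in 11 of 19 alternatives, with edgeR adjusted p-values of up to 0.159.

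Of 17 genes known to be induced by TGF-beta 16 were tested, and 14 were higher and 1 lower after ligation, with a median log2 fold change of 1.45. Comp, a cartilage matrix protein that also occurs in scar, rose from 14.8, 16.1 and 18.3 CPM to 267, 258 and 277, by 4.02 on the log2 scale (SE 0.0728, edgeR adjusted p 5.01e-19). With cells the targets were divided, 2 higher and 4 lower than in ligation. Col3a1, a fibrillar collagen, was lower (log2 -0.23, SE 0.0374, edgeR adjusted p 0.000314). Junb, an AP-1 factor with many other inducers, was higher with cells (log2 0.52, SE 0.0698, edgeR adjusted p 3.15e-05).

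Acta2, smooth muscle actin, was the target that fell after ligation, from 335, 315 and 325 CPM to 240, 244 and 239 (log2 -0.43, SE 0.0470, edgeR adjusted p 2.76e-07). With cells it was at 271, 261 and 272 CPM, 0.15 above ligation (edgeR adjusted p 0.0422), a call lost in 11 of 19 alternatives, with edgeR adjusted p-values of up to 0.139. Summed smooth muscle and pericyte markers stood at 1352 to 1384 CPM in sham, 1001 to 1011 in ligation and 958 to 993 with cells, a sum made up mostly of Rgs5 (means of 882, 599 and 583 CPM). After ligation Rgs5, Myh11 and Kcnj8 were lower, Notch3 was higher (log2 0.20, edgeR adjusted p 0.0455), and Cnn1 and Pdgfrb did not pass. With cells against ligation Kcnj8 and Notch3 were lower, and Myh11 (log2 0.086) and Cnn1 (0.32) did not pass. Their part in the change of Acta2 was not tested. In bulk tissue, fewer cells of a type and less RNA per cell cannot be told apart. Tagln, at a mean of 1.41 CPM in sham, was removed by the filter, and 67.9% of its exon bases overlap exons of Pcsk7 or Gm48529. Exon overlaps also touch 23.2% of Ccn2 and 47.3% of Fstl3.

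Of the other ligands and antagonists of the family 10 of 11 tested were higher after ligation and none lower. Gdf15, a stress-induced cytokine, rose from 5.16, 3.95 and 3.33 CPM to 26.6, 32.8 and 35.2 (log2 2.95, SE 0.167, edgeR adjusted p 1.65e-11). Bgn, biglycan, a proteoglycan that binds TGF-beta, rose by 1.27 and was lower with cells by -0.27 (edgeR adjusted p 8.18e-05). Fmod, fibromodulin, another TGF-beta binding proteoglycan, was higher with cells than in ligation (log2 0.68, SE 0.109, edgeR adjusted p 0.000224).

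**Figure D4:**
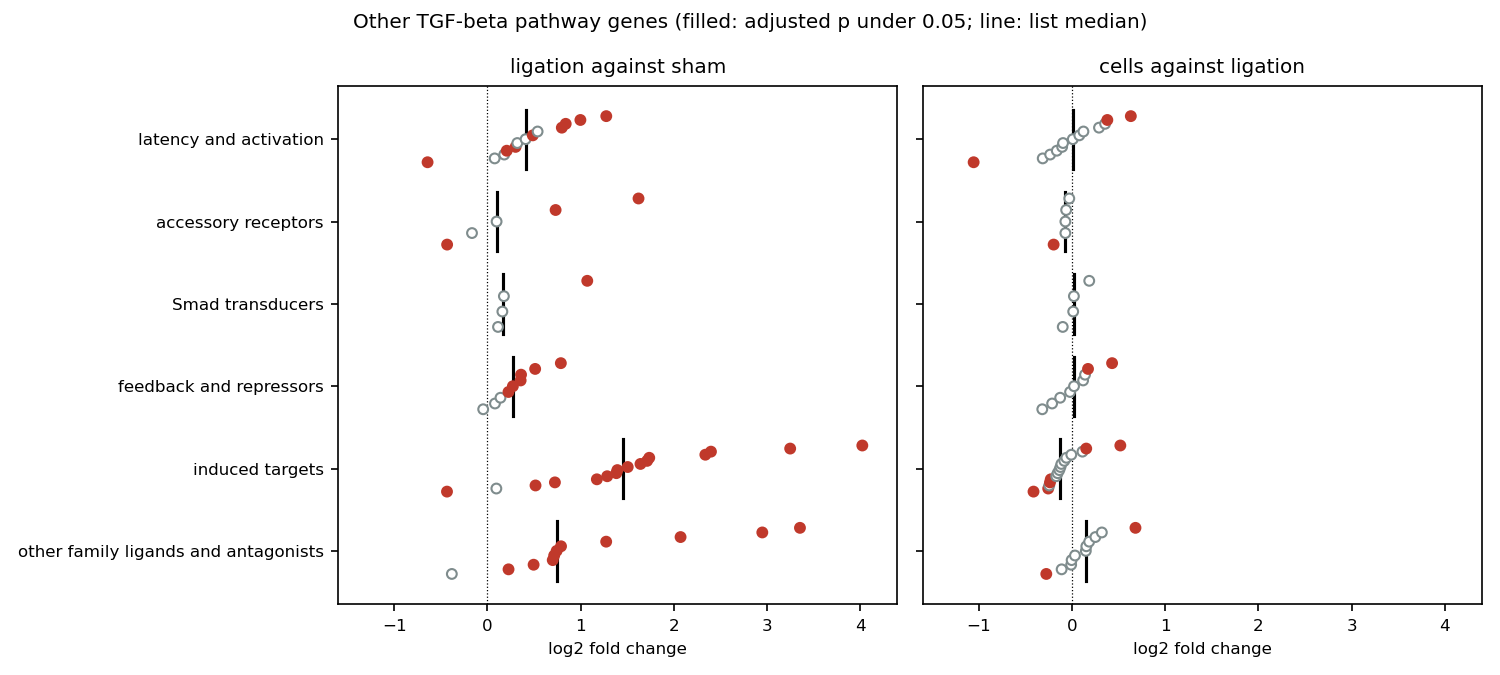
Log2 fold change (x axis) of the 58 other pathway genes tested, by list, after ligation (left) and with cells against ligation (right); filled points have an edgeR adjusted p under 0.05, open points do not, and vertical lines are list medians. The induced targets have a median of 1.45 in the left panel and -0.13 in the right.

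Markers of other cell types also differed between the groups. The summed level of 7 macrophage markers was 645 to 698 CPM in sham, 1163 to 1198 in ligation and 474 to 488 with cells. After ligation 6 of the 7 were higher, and with cells all 7 were lower than in ligation, from -1.24 to -1.69 on the log2 scale. Tgfbi had the same order of groups as this sum and as the erythroid sum. The erythroid sum was mostly Hba-a1 and Hbb-bs, while Hba-a2 fell from a mean of 7.54 CPM in sham to 0.209 in ligation (log2 -5.07). Hbb-bt and Alas2 did not pass between cells and sham. The skeletal muscle sum was also highest in ligation, with overlap between sham and cells. Tgfb1 did not pass between sham and ligation. Of 5 platelet and megakaryocyte markers 3 were tested and 1, Pf4, was lower after ligation (-0.68) and lower again with cells (-1.06). Their sum was 36.7 to 38.1 CPM in sham, 25.2 to 30.8 in ligation and 14.5 to 16.8 with cells, and its fall is that of Pf4, with means of 32.5, 20.3 and 9.71 CPM. The other tested ones, Ppbp (1.74, 2.53 and 1.85 CPM) and Itga2b (2.42, 3.82 and 3.29), did not pass in any comparison, and their means were highest in ligation. The part of either cell type in the changes of Tgfb1, Tgfbi and Nrros was not tested. Summed fibroblast markers were at 2712 to 2790 CPM in sham, 2637 to 2722 in ligation and 2671 to 2775 with cells, a sum made up mostly of Gsn. Single fibroblast markers went both ways after ligation, Col15a1 (0.52) and Lum (0.30) higher and Pdgfra (-0.20) and Gsn (-0.091) lower on the log2 scale. Summed mesothelial markers went from 32.1 to 42.9 CPM in sham to 212 to 249 in ligation and 170 to 176 with cells. With cells against ligation Upk3b, Krt19 and Lrrn4 were lower (log2 -0.62, -0.79 and -0.45), and Wt1 (0.27) and Msln (-0.091) did not pass. The part of the mesothelial markers in the higher members was not tested.

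**Figure D5:**
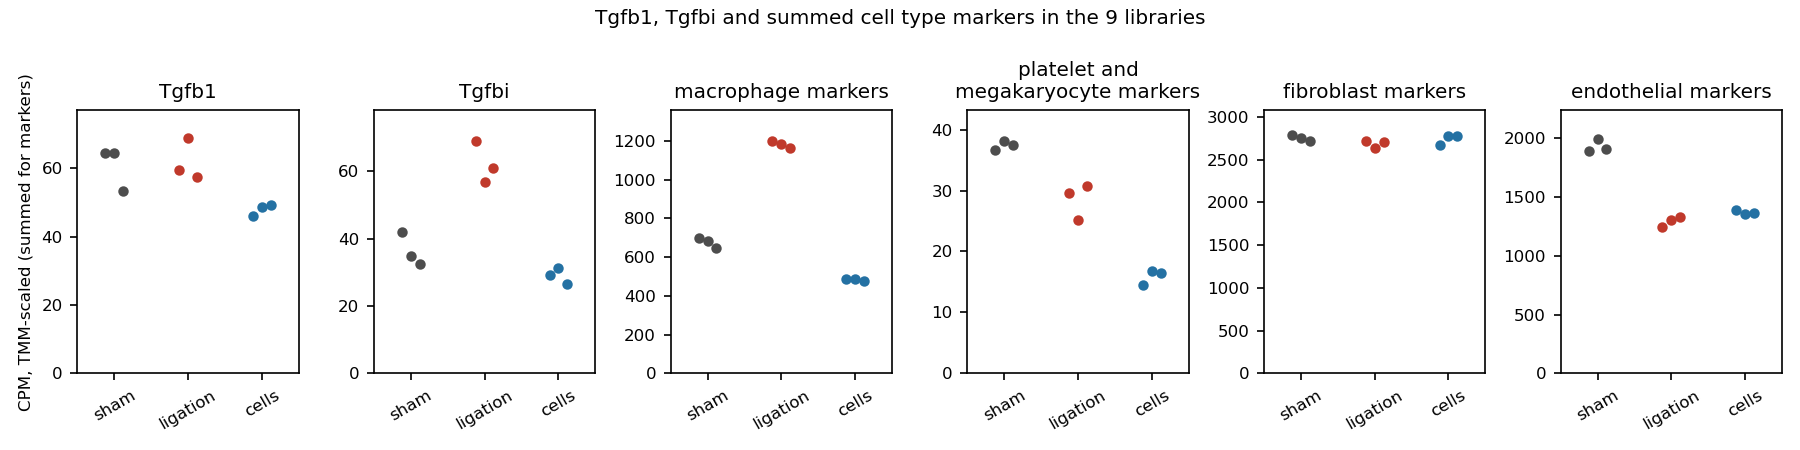
CPM of Tgfb1 and Tgfbi and summed CPM of 4 lists of cell type markers (y axes from 0) in the 9 libraries, 1 point per library. Macrophage markers and Tgfbi are both highest in ligation and lowest with cells, and the fibroblast sum, mostly Gsn, lies between 2637 and 2790 CPM.

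The transcripts whose levels were most like a ligand's were taken as the 3 with the highest Pearson correlation of log2 CPM over the 9 libraries, among 9412 genes at a mean of at least 10 CPM. For Tgfb2 they were Angptl7, Col6a5 and Cd151 (r = 0.99 each), and for Tgfb3 they were Abca5, Clic4 and Sfrp2 (r = 0.99 each). For Tgfb1 they were Ift27, Borcs6 and Kmt5c (r = 0.95, 0.95 and 0.94). The libraries fall into 3 groups, so these values mostly follow the group means. Col6a5, a collagen VI chain, had means of 0.876, 30.3 and 34.8 CPM in sham, ligation and cells.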

How the data were processed

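The authors deposited 1 file of raw read counts per Ensembl gene for each of 9 libraries. Per the labels' protocols, TRIzol total RNA and the NEBNext Ultra RNA kit were used, and per the submitters' processing notes the genome build was mm10. The aligner, counter, strand setting and annotation release are not given in the sources used here. The 5 closing lines of each file (reads in no gene, ambiguous reads and others) were left out, and ambiguous reads made up 8.09% to 8.72% of the total. Groups and replicate numbers came from the titles. For cell replicates 2 and 3 the source label names FOXO4 and FOXO5; their titles and treatment labels name FOXO3 and were followed. Symbols, exon lengths and coordinates came from GENCODE M21 (GRCm38, the same assembly as mm10).

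In R 4.3.3, edgeR 4.0.16 (filterByExpr, TMM, estimateDisp, glmQLFit, glmQLFTest) fitted 1 mean per group over all 9 libraries, with Benjamini-Hochberg adjustment over 13825 genes and a threshold of 0.05. Tests are two-sided. The SE is the log2 fold change divided by the square root of F. CPM use the tested genes' counts after TMM scaling as the library size, and 3 counts equal 0.375 to 0.639 CPM. The members, lists and tests were chosen with earlier results of these data known. All members were named, and from each pathway list, per comparison and direction, the 2 called genes with the lowest adjusted p, some of them given here for 1 comparison only; other list genes were named after their values were seen. Some genes of these lists are counted but not reported here by name. Up to 9.96% of a member's 31-mers occur in another gene's transcripts. Alternatives used DESeq2 1.42.0, limma 3.58.1 (voom), other scalings and filters, pairwise fits, removal of mitochondrially encoded genes, a replicate block and fits without 1 library. Summing libraries of a shared header stem was added after seeing the data. Figures used matplotlib 3.10.9.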

Additional observations from a re-analysis of the deposited data

How the results depend on the processing

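Each count and member was recomputed under 19 alternatives. Counts of all genes, of members and of other pathway genes past 0.05 stayed within 1.5 times of those reported, except the members called between cells and ligation, 2 as reported, which were 4 with no filter and 1 to 3 without single libraries. The changes of Tgfb2, Tgfb3, Tgfbr1, Ltbp2 and Ltbp3 after ligation and against sham with cells, and those of Tgfbi and Tgfbr2 after ligation and of Tgfbi between cells and ligation, kept sign and call under all 19. Signs turned for members that did not pass: after ligation Tgfb1 ranged from -0.055 to 0.075 and Tgfbr3 from -0.027 to 0.14 without single libraries, and Ltbp1 between cells and ligation from -0.0054 to 0.087. The cause of these and of the changed calls given with each member was not tested.

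With the longest transcript as length, the mean shares of Tgfb1 were 68.6%, 47.8% and 38.1% in sham, ligation and cells, those of Tgfb2 9.30% and 22.1% in sham and ligation, and those of Tgfb3 22.1%, 30.1% and 35.8%. The longest transcript is shorter than all exons for Tgfb1 and Tgfb2 and the same for Tgfb3, which moves all shares by construction. Same-numbered libraries showed little shared deviation from their group means (correlations of -0.054 to 0.059 over 13825 genes). With 3 libraries per group this check cannot decide whether the numbers pair them. With the replicate block 5134 genes passed after ligation (5277 without it), 1230 between cells and ligation (1365) and 5511 between cells and sham (5661). In the same order 8, 2 and 9 members passed, as without it. Of the other pathway genes 45, 11 and 47 passed with the block and 43, 14 and 46 without it. Among the genes named in the text for cells against ligation, Ppm1a (edgeR adjusted p 0.0604) and Acta2 (0.0631) no longer passed with it. At these depths 3 counts equal 0.375 to 0.639 CPM, and no member was under 9.26 CPM in any library.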
